A study of Rattus norvegicus with 20 samples.

Results

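The comparison described here follows non-sprouting cortical neurons over time after stroke in young rats, day 21 against day 7. Its members were chosen by channel: on every 2-colour array the non-sprouting RNA was in Cy3, except on arrays titled as dye swaps, where it was in Cy5. This gave 20 of the 40 channels, from 20 arrays of 10 animals, with 5 animals at day 7 and 5 at day 21. The rats were 2 months old, and the labels give neither strain nor sex. Every animal of both groups had a stroke and received the tracer cholera toxin B coupled to Alexa 488 in the cortex beside the infarct, followed by cholera toxin B coupled to Alexa 647 at the same site, 7 or 21 days later in separate cohorts. About 300 neurons of each cell type were laser-captured per animal 7 days after the second tracer, and their RNA went through 2 rounds of T7 amplification. Day 7 and day 21 thus name the time of the second tracer, and the RNA is from 7 days after it. No uninjured animal is among the 10, so every value compares one time after stroke with another.

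A retrograde tracer placed in the cortex beside an infarct is taken up by axon endings and carried back to the cell body. A later tracer at the same site labels neurons whose axons are there at that time, old and new. Those that carry the later tracer without the earlier are read as neurons whose axons reached the site after the earlier injection. Neurons read as without such new growth lie in the same tissue and share its ischaemic, inflammatory and activity-related signals, and serve as the sprouting neurons' neighbours. The weeks after stroke are known as a period in which immediate inflammation and glial reaction recede while axonal growth, synapse formation and changes of the extracellular matrix go on.

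No gene passed the test of day 21 against day 7 once p-values were adjusted over all genes. Of 32580 genes tested, 0% passed a Benjamini-Hochberg adjusted p of 0.05 (limma), and the lowest adjusted p was 0.411. Before adjustment 2957 genes had a p under 0.05, where 1629 are the number that chance alone would give on average. Of these, 2157 were lower at day 21 (6.62% of all genes tested) and 800 were higher (2.46%). The 1629 count both directions together. The excess over chance lay on the lower side, and the higher genes were about as many as chance gives in a single direction. The levels of all 5 day 21 animals lay below those of all 5 day 7 animals for 418 genes (1.28%) and above them for 57 (0.175%). By chance a gene has no overlap with a probability of 0.0079, both directions together. The 57 on the higher side are fewer than that gives for a single direction. The median difference over all genes was -0.05 on the log2 scale and the median standard error of a gene's difference was 0.17. The genes below are therefore described by their values and are not called changed.

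Array brightness overlapped between the days. The median signal of the non-sprouting channel was 198 ± 58.0 intensity units at day 7 and 196 ± 70.2 at day 21 (SD, n = 5 each; exact permutation test, two-sided p = 0.937, adjusted over 2 measures 0.937). The share of probes well above background was 83.6% ± 5.41 at day 7 and 75.2% ± 9.70 at day 21 (n = 5 each; exact permutation test, p = 0.103, adjusted 0.206; the smallest p this design allows is 0.0079). The lowest single channel was the Cy3 channel of day 21 replicate 3, with 40.5% of probes above background. As the labels promise neurons, 18 general neuron markers were examined, and 14 of them lay above background on all 20 arrays. Markers of other cells were measured too: 16 of 20 astrocyte, 11 of 18 oligodendrocyte, 12 of 19 microglial and 12 of 19 vascular markers lay above background on all 20 arrays. Over all genes the number was 11837 of 32580, and every gene tested had passed a filter on background.

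Single-channel levels carry whatever belongs to an array, and the arrays of some animals disagreed. Across genes, the non-sprouting levels of both arrays of an animal, each taken as a deviation from the gene's mean, correlated at 0.88, 0.88, 0.75, 0.37 and 0.58 for day 7 replicates 1 to 5. For day 21 replicates 1 to 5 the correlations were 0.58, 0.13, 0.01, -0.20 and 0.56. Day 21 replicates 2, 3 and 4 thus had a pair of arrays that hardly agreed. In all 10 animals the non-sprouting channel correlated at 0.79 to 0.94 with the sprouting channel of the same array. The ratio of the cell types, in which effects of an array cancel, correlated between both arrays at 0.34 to 0.74 in 9 animals and at -0.36 in day 21 replicate 4. All arrays of day 7 replicates 1 and 2 were scanned on 2 days that no other animal shared, and the other 8 animals on 3 later days that each held both groups. Gene counts and some list medians are given below with and without these animals, and single genes only where their sign turned.

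**Figure D1:**
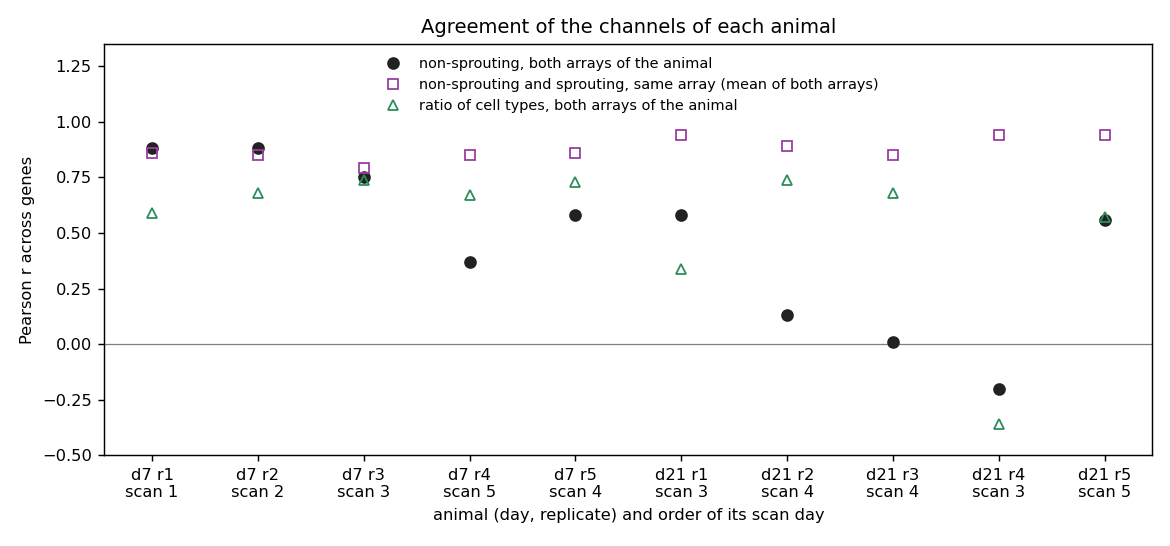
Correlation across genes (y axis, Pearson r) for each of the 10 animals (x axis, with the order of the scan day). Filled circles compare both arrays of the animal in the non-sprouting channel, squares compare both cell types on the same array, and triangles compare the ratio of cell types on both arrays. Day 21 replicates 2, 3 and 4 have circles at 0.13, 0.01 and -0.20, while their squares lie between 0.85 and 0.94.

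Leaving out day 7 replicates 1 and 2 lowered the number of genes at an unadjusted p under 0.05 from 2957 to 1423 (262 higher and 1161 lower), and none passed the adjusted threshold. A fit with the scan day as a block gave 1430 such genes (318 higher and 1112 lower), again with 0 past the adjusted threshold. Leaving out day 21 replicates 2, 3 and 4 raised the number to 6961 (3363 higher and 3598 lower), with 0 past the threshold and a lowest adjusted p of 0.093. Single animals also mattered: without day 7 replicate 5 the number was 6209, and without day 7 replicate 1 or 2 it was 1921 or 1940.

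The array sets gave different numbers. On the 10 arrays with non-sprouting RNA in Cy3, 0 genes passed the adjusted threshold and 810 had an unadjusted p under 0.05. On the 10 dye-swapped arrays, with the same RNA in Cy5, 929 genes passed (418 higher and 511 lower) and 7927 had an unadjusted p under 0.05. Of the 929 genes, 837 had a difference of the same sign in the Cy3 arrays, and 82 of them had there an unadjusted p under 0.05 as well. The test of the difference between both array sets, made within animals, called 0 genes at the adjusted threshold (lowest adjusted p = 0.0513) and 5022 at an unadjusted p under 0.05. Of the 929 genes, 492 were among these 5022. The calls from the dye-swapped arrays are therefore not used as results here.

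The 12 genes with the smallest p in each direction, among those with a current symbol and no overlap between the days, are described next by role. Of these 24 genes, 24 kept the sign of their difference within each of the 3 scan days that held both groups and in both array sets. The day 7 side of scan days 3, 4 and 5 was a single animal each: replicates 3, 5 and 4. On scan day 5 the day 21 side was also a single animal, replicate 5. The Cy5 array of day 7 replicate 3 was scanned on scan day 4, yet this animal's mean was counted under scan day 3. The same sign was also seen for 24 of the 24 in the sprouting neurons, which were on the same arrays. These genes were chosen for their separation in these samples, so such counts describe them and are no separate support.

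Among genes of excitability and synaptic release, 2 led the higher side. Kcnip1 encodes a calcium-binding subunit of the Kv4 potassium channels. Its log2 level was 7.59, 7.59, 7.46, 7.54 and 7.36 in day 7 replicates 1 to 5 and 8.47, 8.15, 8.19, 8.12 and 8.46 in day 21 replicates 1 to 5. The lowest day 21 animal thus stood above the highest day 7 animal, and the difference was 0.77 ± 0.11 (SE), or 1.71-fold, with p = 2.37e-05 and adjusted p = 0.411 (limma). Nsf encodes the ATPase that takes apart SNARE complexes after vesicle fusion. It was at 7.75, 7.70, 7.45, 8.06 and 7.37 at day 7 and at 9.55, 8.43, 8.46, 8.70 and 8.51 at day 21. Its difference of 1.06 ± 0.22 (2.09-fold, adjusted p = 0.411) rested in part on day 21 replicate 1, the highest animal, and was 0.86 without it. Within the 3 scan days, each with a single day 7 animal, the Kcnip1 difference was 0.83, 0.81 and 0.92. That of Nsf was 1.67, 1.07 and 0.45. In sprouting neurons the same comparison gave 0.57 ± 0.17 for Kcnip1 and 0.90 ± 0.21 for Nsf.

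Genes of growth and of its substrate stood on both sides. Epha7, a receptor for ephrins that guide axons, was at 7.96, 7.73, 7.93, 8.09 and 7.62 at day 7 and at 8.38, 8.19, 8.25, 8.32 and 8.55 at day 21, a difference of 0.47 ± 0.12 (adjusted p = 0.485, limma). A less bright Epha7 probe differed by -0.04, so the probes disagreed. Arg1, the arginase that turns arginine into ornithine for polyamine synthesis, was at 8.429, 8.628, 8.497, 8.451 and 7.79 at day 7 and at 9.45, 8.86, 8.74, 8.94 and 9.38 at day 21. The difference was 0.72 ± 0.19 (adjusted p = 0.49), and day 7 replicate 5 lay far below the other 4. Vcan encodes versican, a chondroitin sulfate proteoglycan of the extracellular matrix. Its level was 9.11, 8.93, 9.15, 9.01 and 9.07 at day 7 and 8.45, 8.80, 8.41, 8.08 and 8.08 at day 21. The difference was -0.69 ± 0.14 (adjusted p = 0.411, limma), another Vcan probe gave -0.42, and the sprouting neurons gave -0.19 ± 0.25. Ret, the receptor tyrosine kinase of the GDNF family, was lower, with 8.69, 8.49, 8.20, 8.38 and 8.39 at day 7 against 7.31, 7.66, 7.68, 7.73 and 7.95 at day 21. Its difference was -0.76 ± 0.14 (adjusted p = 0.411), with -0.10 and -0.26 from its other probes. Ndp encodes norrin, a secreted ligand of the Frizzled-4 receptor in vessel growth. It was at 9.35, 9.23, 9.30, 8.91 and 8.94 at day 7 and at 8.10, 8.30, 8.84, 8.43 and 8.09 at day 21, a difference of -0.80 ± 0.16, while another probe gave 0.24.

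Crhr1, the receptor for the stress peptide corticotropin-releasing hormone, was at 8.57, 8.54, 8.22, 8.96 and 8.53 at day 7. All day 21 animals were lower, at 7.71, 7.99, 7.74, 7.86 and 7.78. The difference was -0.75 ± 0.14 (adjusted p = 0.411, limma) and within the scan days -0.43, -0.66 and -1.18. A less bright Crhr1 probe differed by 0.73 in the opposite direction, and the mean of all Crhr1 probes differed by -0.010. Aqp9, a channel for water, glycerol and other small solutes, was at 8.87, 8.81, 9.11, 8.99 and 8.69 at day 7 and at 8.08, 8.16, 8.498, 8.03 and 8.22 at day 21. Its difference of -0.70 ± 0.12 had an adjusted p of 0.411 and came from its single probe.

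Several leading genes act on RNA and its translation. Rbm27, an RNA-binding protein, had the smallest p on the lower side. It was at 9.82, 9.75, 9.82, 9.97 and 9.75 at day 7 and at 8.61, 9.1, 9.01, 9.27 and 8.87 at day 21. The day 7 animals lay within a narrow band and all day 21 animals below it, with a difference of -0.85 ± 0.13 (1.802-fold lower; p = 3.83e-05, adjusted p = 0.411, limma). Its other probes gave -0.15 and -0.09. Eif3g, a subunit of the translation initiation factor eIF3, was at 9.89, 9.75, 9.86, 9.60 and 9.75 at day 7 and at 10.18, 10.04, 10.45, 10.23 and 10.22 at day 21, a difference of 0.45 ± 0.11 (adjusted p = 0.466). Dkc1, the pseudouridine synthase dyskerin, was higher by 0.67 ± 0.19, and Farsb, the beta subunit of phenylalanyl-tRNA synthetase, by 0.31 ± 0.09. Rpp38, a protein subunit of ribonuclease P, was lower, with a difference of -0.53 ± 0.11, while its other probe gave 0.13.

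The remaining leading genes had other roles. Pprc1, a coactivator related to PGC-1 that acts on genes of mitochondrial biogenesis, was at 8.80, 8.78, 8.47, 8.72 and 8.42 at day 7 and at 8.07, 8.07, 7.84, 8.03 and 7.73 at day 21. Its difference was -0.69 ± 0.12 (adjusted p = 0.411, limma). Lower at day 21 were also the microtubule-associated Rmdn1 (-0.53 ± 0.10), the sterol-isomerase relative Ebpl (-0.62 ± 0.13), the condensin subunit Smc4 (-0.63 ± 0.13) and the AP-3 adaptor subunit Ap3m1 (-0.63 ± 0.13). Higher were Sap30bp (0.42 ± 0.11), Txnl4b (0.57 ± 0.15), the EGF-like transmembrane protein Tmeff1 (0.55 ± 0.15), Ngrn (0.30 ± 0.09) and the phosphatidylinositol transfer protein Pitpna (0.48 ± 0.16). Of the 24 leading genes 11 had at least 1 further probe, and in 7 of these every further probe had the same sign.

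**Figure D2:**
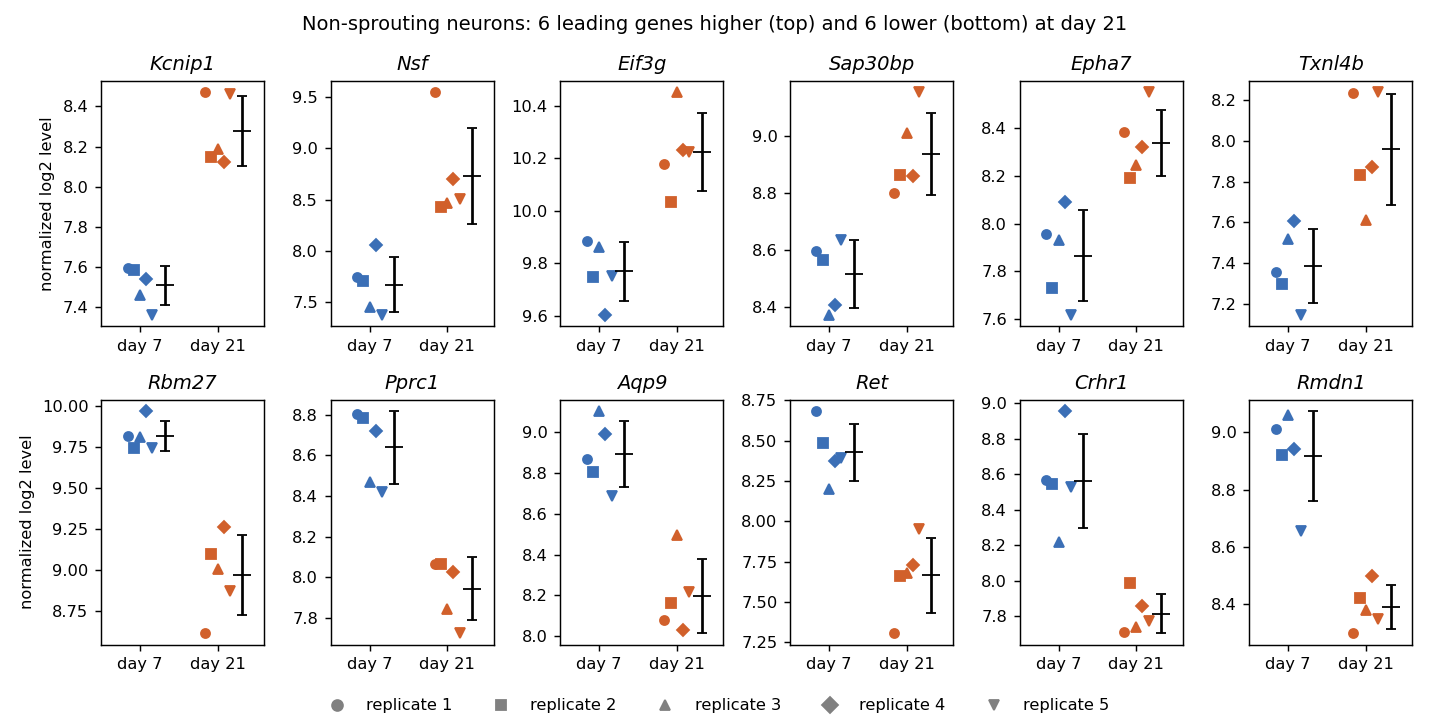
Normalized log2 level in non-sprouting neurons (y axis) of the 6 genes with the smallest p on the higher side (top) and on the lower side (bottom), by day. Each symbol is 1 animal, and the black bar is the mean ± SD of 5 animals. In each panel the 5 day 21 animals lie on 1 side of the 5 day 7 animals, which was how the genes were chosen. For Kcnip1 the day means are 7.51 and 8.28.

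**Figure D3:**
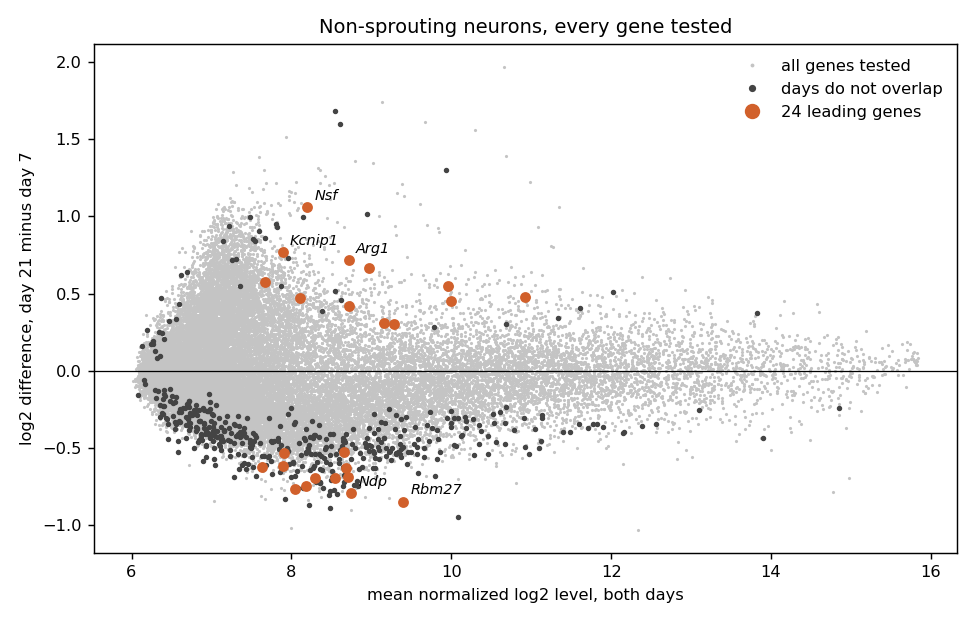
Difference of day 21 minus day 7 (y axis, log2) against the mean level over both days (x axis, log2) for all 32580 genes tested in non-sprouting neurons. Dark points are the genes whose animals do not overlap between the days, and the large points are the 24 leading genes. Genes without overlap are 418 below the zero line and 57 above it.

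**Figure D4:**
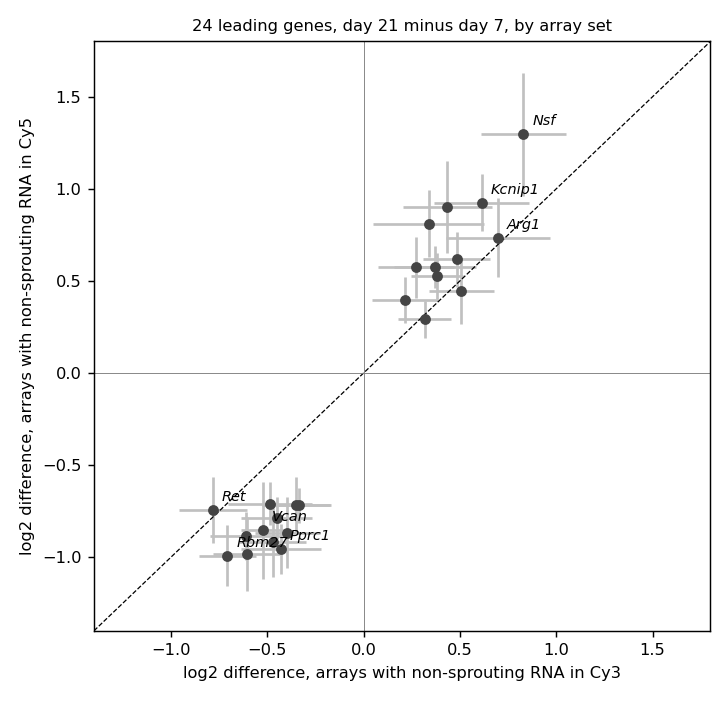
Difference of day 21 minus day 7 for the 24 leading genes on the arrays with non-sprouting RNA in Cy3 (x axis, log2) and in Cy5 (y axis, log2), with bars of 1 SE from 5 animals per day. The dashed line marks equal differences. All 24 have the same sign on both axes, from -0.78 to 0.83 in Cy3 and from -0.99 to 1.30 in Cy5.

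For 3 of the leading genes, 1 on the higher and 2 on the lower side, the start region is shown. Nsf and Crhr1 were taken because they are near each other on a chromosome and their brightest probes had opposite signs. The other Crhr1 probe, at 0.73, had the same sign as Nsf. Ndp stands for the promoters poor in CpG. The sequences are from RefSeq on build GRCr8 and run 5′ to 3′ from 250 bases before to 50 bases after the start of the gene; capitals mark the motifs named below. The Nsf window is chr10:89357334-89357633 on the minus strand, that of Crhr1 chr10:89539959-89540258 on the plus strand and that of Ndp chrX:8379319-8379618 on the plus strand.
Nsf: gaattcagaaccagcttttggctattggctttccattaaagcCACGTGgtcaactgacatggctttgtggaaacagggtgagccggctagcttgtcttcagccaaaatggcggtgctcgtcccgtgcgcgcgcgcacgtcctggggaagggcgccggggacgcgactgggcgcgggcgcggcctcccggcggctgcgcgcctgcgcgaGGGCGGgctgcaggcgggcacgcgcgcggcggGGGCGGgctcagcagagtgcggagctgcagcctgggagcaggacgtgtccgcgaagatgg
Crhr1: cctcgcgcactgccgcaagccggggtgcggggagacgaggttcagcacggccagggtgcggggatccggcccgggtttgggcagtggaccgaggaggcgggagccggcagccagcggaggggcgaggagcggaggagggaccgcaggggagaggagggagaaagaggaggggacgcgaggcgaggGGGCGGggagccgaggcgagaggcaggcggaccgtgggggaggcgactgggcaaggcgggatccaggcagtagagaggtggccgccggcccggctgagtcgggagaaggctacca
Ndp: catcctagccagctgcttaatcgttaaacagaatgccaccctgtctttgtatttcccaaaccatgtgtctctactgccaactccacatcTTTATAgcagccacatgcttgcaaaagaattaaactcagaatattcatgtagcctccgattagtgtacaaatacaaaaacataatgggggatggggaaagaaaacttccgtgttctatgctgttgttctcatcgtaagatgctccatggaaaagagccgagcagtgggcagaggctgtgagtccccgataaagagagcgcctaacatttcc

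Both strands were searched for the cyclic AMP response element TGACGTCA, the AP-1 site TGANTCA, the E-box CACGTG, the GC box GGGCGG and the TATA box TATAAA, which do not overlap in these windows. The Nsf window held 1 E-box and 2 GC boxes, that of Crhr1 held 1 GC box, and that of Ndp held 1 TATA box on the minus strand of the window. The Nsf window had 36 CpG and 68.7% G or C, and the Ndp window 7 CpG and 44.3%. Of all 27457 promoters of this length, 1.91% held the cyclic AMP response element, 7.33% the AP-1 site, 6.65% the E-box, 34.9% the GC box and 14.3% the TATA box. Of the 120 genes without overlap on the lower side that were matched to a promoter, 3.33%, 5%, 8.33%, 45.8% and 11.7% held them. Of the 17 matched genes without overlap on the higher side, 5.88%, 11.8%, 17.6%, 52.9% and 5.88% held them, that is 1, 2, 3, 9 and 1 genes. The shares among the 11628 genes tested that were matched were 2.59%, 5.95%, 8.16%, 52.6% and 10.6%.

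Gene lists are described by their counts and median, beside the same over all genes, for which 59.0% of differences were negative, the median was -0.05 and 0 passed. None of the 39 lists had a member past the adjusted threshold. The lists with the highest medians were those of glycolysis (0.10 over 26 genes), of the cytoskeleton and its transport motors (0.08 over 44) and of oxidative phosphorylation (0.07 over 55). In these lists of bright genes the sign depended on how arrays were scaled: with median scaling between arrays the medians were -0.24, -0.24 and -0.33. That scaling moved the median of all genes from -0.05 to -0.13, and the scanner software's processed signals moved it to -0.14.

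The list of apoptosis genes had a median of -0.17, with 30 of 36 members lower and 6 higher. Of the 36, 8 were lower and 0 higher at an unadjusted p under 0.05, where 6.62% of all genes were lower and 2.46% higher. Casp1, the caspase that matures interleukin-1, was at 7.99, 7.89, 8.31, 8.33 and 7.34 at day 7 and at 7.52, 7.16, 6.98, 7.77 and 6.93 at day 21, and the days overlapped. Its difference was -0.70 ± 0.22 (adjusted p = 0.507, limma). The members lower at an unadjusted p under 0.05 included the death promoters Bax (-0.48), Apaf1 (-0.43) and Fas (-0.39) but also the death inhibitors Bcl2 (-0.32) and Birc5 (-0.38). The list's median stayed negative in each of 11 other settings, from -0.36 to -0.09, and below that of all genes in 11 of 11. These settings draw on the same animals, and several other lists were below all genes as often. The mean level of the apoptosis list ranged from 8.573 to 8.772 in day 7 animals and from 8.383 to 8.615 in day 21 animals, so the days overlapped.

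Growth-associated genes stood close to all genes, with a median of 0.01 over 44 members, 23 of them higher and 21 lower. Gap43, the growth cone protein, was at 15.48, 15.37, 14.95, 15.06 and 15.28 at day 7 and at 15.40, 15.20, 15.57, 15.11 and 14.62 at day 21, with saturated spots on 5 of 20 arrays. The days overlapped throughout, and the difference was -0.05 ± 0.18 (adjusted p = 0.925, limma). Jun differed by -0.16 ± 0.17 and Atf3 by -0.34 ± 0.27, both transcription factors of axonal injury. Sox11, a transcription factor of immature and regrowing neurons, differed by -0.36 ± 0.14, and the microtubule protein Dcx of migrating young neurons by -0.41 ± 0.15 (adjusted p = 0.529 and 0.526). Of the chromatin remodeller Atrx, the difference was 0.62 ± 0.43, with day 7 animals from 8.82 to 11.12 and day 21 animals from 10.16 to 11.36.

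Among axon guidance genes the median was -0.03 over 34 members, and Unc5c, a netrin receptor, differed by -0.65 ± 0.22 (adjusted p = 0.521). The growth-inhibitory list had a median of -0.06 over 26 members, with 0 below an unadjusted p of 0.05. Over all genes, 6.62% were lower and 2.46% higher at that p. Genes of the perineuronal net and of chondroitin sulfate proteoglycans had a median of -0.12, with 20 of 25 lower. Vcan was the only member of that list without overlap between the days. Over all genes, 1.28% were lower and 0.175% higher without overlap. Chst11, a chondroitin sulfotransferase, differed by 0.99 ± 0.43, with day 21 replicate 1 at 9.29 and the other day 21 animals between 6.81 and 7.75. The Chst11 probe lay above background on 5 of 10 day 7 arrays and 7 of 10 day 21 arrays, and its difference was 0.16 on the Cy3 arrays and 1.83 on the Cy5 arrays (p of the difference between array sets 0.0016, adjusted p = 0.193, limma). Growth factors and their receptors had a median of -0.09, with 36 of 55 lower. Bdnf, the neurotrophin, differed by -0.07 ± 0.22, Gdf10, a member of the TGF-beta family, by -0.13 ± 0.20, Igf1 by 0.20 ± 0.23 and Fgf9 by -0.50 ± 0.18, with adjusted p from 0.528 to 0.909 (limma). The 3 other Igf1 probes had the opposite sign, at -0.25, -0.20 and -0.27, and the mean of all Igf1 probes differed by -0.13.

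Synaptic and channel lists held single genes on either side, and their counts rest on a few genes each; over all genes 6.62% were lower and 2.46% higher at an unadjusted p under 0.05. Presynaptic release genes had a median of 0.04 and postsynaptic glutamate receptor genes 0.02, each over 47 members. Immediate-early genes had a median of -0.08, with 24 of 35 lower; Egr1 differed by -0.46 ± 0.18 (adjusted p = 0.529). For potassium channels the median was -0.04 over 39, with 3 members higher and 4 lower at an unadjusted p under 0.05. Of 34 sodium, calcium and HCN channel genes 5 were lower and 2 higher at an unadjusted p under 0.05. The L-type calcium channel subunit Cacna1d was at 8.82, 8.39, 8.87, 8.80 and 8.44 at day 7 and at 7.53, 8.17, 8.07, 8.15 and 7.80 at day 21. This difference was -0.72 ± 0.16 (adjusted p = 0.442), while its other probes gave -0.15 and -0.10. The presynaptic calcium channel subunit Cacna1b differed by -0.46 ± 0.14, with another probe at 0.09, and the endoplasmic calcium channel Itpr1 by -0.24 ± 0.09. The neuropeptide list had a median of -0.06 over 38 genes, and Oprl1, the nociceptin receptor, differed by -0.44 ± 0.12, with another probe at 0.23.

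Lists of the cell's protein and energy economy had medians from -0.08 to 0.10. Of 75 cytosolic ribosome genes 44 were higher, and their median was 0.03, while of 53 mitochondrial ribosome genes 27 were higher (median 0.001). Chaperones had a median of 0.07, with 28 of 41 higher, yet the members with the smallest p were lower: the endoplasmic chaperone partner Dnajb9 at -0.63 ± 0.16 (adjusted p = 0.485, limma) and the disulfide isomerase Pdia3 at -0.46 ± 0.14. Dnajb9 was at 8.85, 9.41, 9.07, 9.38 and 9.27 at day 7 and at 8.10, 8.75, 8.75, 8.65 and 8.60 at day 21, with no overlap. Another Dnajb9 probe gave -0.21. The signs of these 3 lists depended on the scaling: with median scaling between arrays the medians were -0.34 for the cytosolic ribosome, -0.33 for the mitochondrial ribosome and -0.29 for chaperones. The proteasome list had a median of -0.05, and of -0.42 with that scaling. Other medians were -0.08 for cholesterol synthesis, -0.02 for autophagy and lysosome, -0.06 for splicing, -0.08 for translation factors, -0.07 for chromatin regulators and -0.07 for stress and antioxidant genes. In the chromatin list the acetyltransferases Kat2b and Crebbp differed by -0.54 ± 0.17 and -0.44 ± 0.14; further probes gave 0.66 and -0.28 for Kat2b and 0.60 and -0.01 for Crebbp, so the probes of both genes disagreed.

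Markers of astrocytes, oligodendrocytes and vessel cells were more often lower at day 21 than all genes, of which 59.0% were lower. The astrocyte list had a median of -0.22, with 18 of 20 lower, the oligodendrocyte list -0.24, with 14 of 18 lower, and the list of vessel cells -0.22, with 17 of 19 lower. The microglial list stood close to all genes, with a median of -0.04 and 11 of 19 lower. The mean log2 level of the astrocyte list ranged from 9.67 to 10.16 in day 7 animals and from 9.65 to 9.90 in day 21 animals, so the days overlapped. For oligodendrocyte markers the ranges were 8.82 to 9.60 and 8.78 to 9.17, and for vascular markers 7.91 to 8.41 and 7.88 to 8.12. Without day 7 replicates 1 and 2 the medians were -0.17 for astrocytes, -0.03 for oligodendrocytes and -0.02 for vessels. The median of all genes was then -0.01, so the oligodendrocyte and vessel lists stood close to all genes. The part of these markers in the single-gene differences was not tested. In captured bulk material, fewer cells of a type and less RNA per cell cannot be told apart.

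Single markers differed in which animal was highest. Agt, angiotensinogen from astrocytes, was at 9.91, 9.57, 9.16, 9.34 and 9.33 at day 7 and at 8.84, 9.05, 8.78, 8.90 and 8.95 at day 21, a difference of -0.56 ± 0.14 (adjusted p = 0.485, limma). Day 7 replicate 1 had the myelin gene Mbp at 11.07, while the other 9 animals ranged from 8.85 to 9.93, and Ermn, of oligodendrocytes, was highest in that animal too, at 9.46. The myelin gene Mog was instead highest in day 7 replicate 3, at 9.08. It was at 8.98 in day 21 replicate 3 and at 8.71 in day 7 replicate 1. Mbp differed by -0.12 ± 0.39 and by 0.25 without day 7 replicate 1. The astrocyte filament Gfap differed by -0.16 ± 0.25 and the microglial Aif1 by 0.02 ± 0.15. The blood list had 5 of 10 members lower and 5 higher, with a median of 0.03. Its members with the smallest p had opposite signs: the red-cell gene Hbb differed by -0.56 ± 0.16 and Lyz2, a lysozyme of myeloid cells, by 0.45 ± 0.23 (adjusted p = 0.49 and 0.555, limma).

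The identity of the captured neurons was examined with markers of neuron classes. General neuron markers had a median of -0.03, with 9 of 18 lower; Rbfox3, the neuronal nuclear protein, differed by -0.07 ± 0.20 (adjusted p = 0.9, limma). Markers of upper cortical layers had a median of -0.24, with 15 of 19 lower, and markers of deep layers -0.02, with 10 of 19 lower. Lamp5 of upper-layer and some inhibitory neurons was at 9.50, 9.36, 9.49, 9.24 and 9.04 at day 7 and at 8.14, 8.44, 9.13, 8.59 and 8.23 at day 21. Only day 21 replicate 3 reached into the day 7 range, and the difference was -0.82 ± 0.19 (adjusted p = 0.461). Lhx2, a homeodomain factor, differed by -0.40 ± 0.13, and Rorb, of layer 4, by -0.47 ± 0.21. Rorb ranged from 7.00 to 8.20 in day 7 animals and from 6.88 to 7.31 in day 21 animals, so the days overlapped. Fezf2, of deep projection neurons, differed by 0.51 ± 0.24. The upper-layer median was below that of all genes in 11 of 11 other settings and ranged from -0.47 to -0.14. The same held for the astrocyte, oligodendrocyte, vessel, perineuronal net, immediate-early and apoptosis lists, and all settings draw on the same 10 animals. The mean level of the upper-layer list ranged from 8.44 to 8.93 in day 7 animals and from 8.36 to 8.74 in day 21 animals, so the days overlapped. Cells of different layers and a change within cells cannot be told apart by these bulk levels.

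Markers of inhibitory neurons had a median of 0.05 over 22 genes and those of glutamatergic neurons 0.02 over 16. Gad1, the GABA-synthesizing enzyme, differed by 0.10 ± 0.26, with day 21 replicate 3 at 9.12 above all others, and by 0.39 on the Cy3 arrays against -0.19 on the Cy5 arrays; its other probes gave 0.09 and 0.64. The vesicular glutamate transporter Slc17a7 was at 6.76, 6.46, 6.59, 6.40 and 7.98 at day 7 and at 8.11, 6.35, 6.87, 7.65 and 7.86 at day 21. It lay above background on 5 of 10 day 7 arrays and 7 of 10 day 21 arrays, and its difference was 0.53 ± 0.39 (adjusted p = 0.621).

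**Figure D5:**
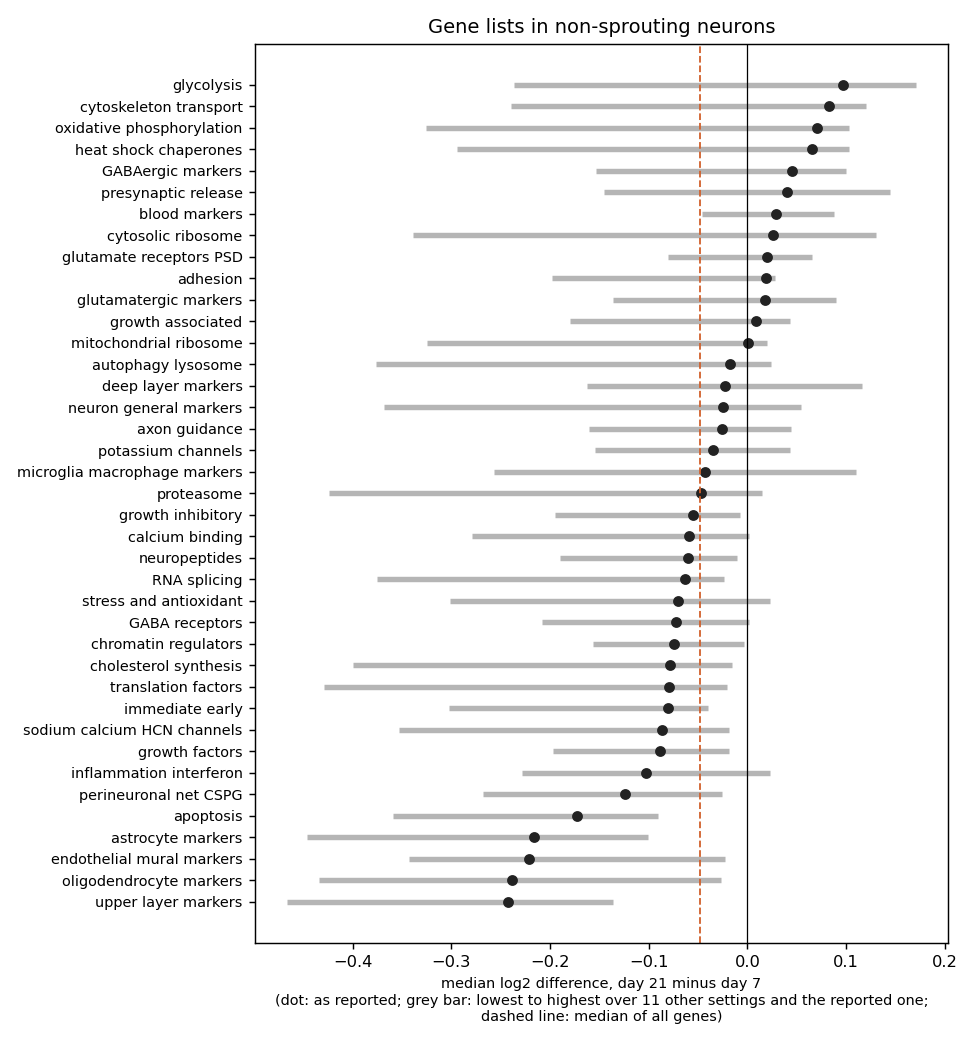
Median log2 difference of day 21 minus day 7 (x axis) for the 39 gene lists (y axis) in non-sprouting neurons. The dot is the value as reported, the grey bar runs from the lowest to the highest median over 12 settings, and the dashed line is the median of all genes, -0.05. Upper-layer, oligodendrocyte, vascular, astrocyte and apoptosis lists lie lowest, from -0.24 to -0.17.

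The same comparison in sprouting neurons, made on the other channel of the same arrays, also gave 0 genes past the threshold (lowest adjusted p = 0.166) and 2904 at an unadjusted p under 0.05, 2089 lower and 815 higher. Because both cell types of an animal shared its arrays, these numbers are set side by side and not compared. The difference of the day effect between the cell types was tested on the ratio within each array, where array effects cancel. No gene passed (lowest adjusted p = 0.716, limma), 1320 genes had an unadjusted p under 0.05, fewer than the 1629 that chance gives on average, and the median standard error was 0.07 against 0.17 for the level. For Rbm27 the day effect differed between the cell types by 0.29 ± 0.06 (p = 0.000837, adjusted p = 0.942), with -0.85 in non-sprouting and -0.56 in sprouting neurons. For Kcnip1 the same test gave -0.20 ± 0.12 (adjusted p = 0.942) and for Crhr1 -0.01 ± 0.15 (adjusted p = 0.999).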

How the data were processed

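The samples were 20 rat 2-colour arrays, 2 dye-swapped arrays for each of 10 animals. Per the file headers, the deposited scanner files came from Agilent Feature Extraction 9.1.3.1 and hold spot intensity and local background of both channels, and processed signals, also an intensity. The authors deposited a table of normalized log2 ratios and mean log intensities whose method is not given in the sources used here; it served as an alternative, and 0 of its sample columns were left unmapped. Genes and lists were chosen with earlier results of these data known.

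Mean signals were background-corrected (normexp, offset 50), normalized by loess within arrays (2256 control spots at weight 0, outlier spots left out) and by Aquantile between arrays, with limma 3.58.1 in R 4.3.3. The non-sprouting log2 level was averaged over spots and both arrays of an animal. Of 41012 probes, 36732 were kept: those that the scanner marked well above background on 0.5 or more of a day's arrays and that 3 or more animals per day had measured. Each gene was represented by its brightest probe, giving 32580 genes, 14313 with a symbol. Symbols came from the GRCr8 RefSeq table by accession (10658 probes), symbol (4647) or synonym (3885), and 21822 probes kept the file's name. No chromosome positions of probes are given.

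Days were compared with lmFit and eBayes, 5 against 5 animals, unpaired, two-sided, with a Benjamini-Hochberg adjusted p of 0.05 as the threshold. The difference between cell types was fitted on ratios per animal. Channel signals were compared with an exact permutation test. The text names up to 12 genes per direction with a current symbol: those past the threshold whose animals do not overlap, by size, and in the places left those without overlap with the smallest p; then, per list, its 2 smallest p, and 13 set genes, among them Gap43, Bdnf and Slc17a7. Some genes of this set are not reported here. Bax, Apaf1, Fas, Bcl2, Birc5 and Itpr1 were named after their values were seen. The fit was tested on simulated data. Alternatives were background, scaling, dye, filter, probe, weight, batch and block choices and the omission of animals; 2 of them, without the animals scanned first and without those whose arrays disagreed, were chosen after the data were seen.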

Additional observations from a re-analysis of the deposited data

Results flagged for a closer look

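In 200 groups of 5 animals (100 genes, both days), 11 had an animal whose gap to its neighbour was over 0.71 of the group's range; chance flags about 1 in 20 groups. Levels are log2. Day 21 replicate 1 stood apart for Nsf (9.55, the others 8.43 to 8.70), for Dnajb9 (8.10, the others 8.60 to 8.75) and for Flt1 (6.55, the others 6.73 to 6.80). Day 21 replicate 3 stood apart for Pitpna (11.64, the others 10.93 to 11.10) and Gad1 (9.12, the others 7.83 to 7.93). Day 21 replicate 5 did so for Rorb (7.31, the others 6.88 to 7.00). Among day 7 animals, replicate 5 stood apart for Arg1 (7.79, the others 8.43 to 8.63), Ndufs4 (8.63, the others 8.98 to 9.12) and Slc17a7 (7.98, the others 6.40 to 6.76). Replicate 4 did so for Serping1 (7.87, the others 8.30 to 8.39) and replicate 2 for Camk2b (10.36, the others 9.27 to 9.57).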

How the results depend on the processing

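Under 31 alternatives the count past the adjusted threshold stayed at 0, other than for the Cy5 arrays alone (418 higher, 511 lower). Numbers at an unadjusted p under 0.05 were 800 higher and 2157 lower as reported. They moved to 315 and 495 with the Cy3 arrays alone, 2256 and 5671 with the Cy5 arrays alone, 196 and 1055 with probes above background on all arrays (11984 genes tested), 1442 and 3557 with array weights, 318 and 1112 with scan day as a block, 262 and 1161 without the 2 animals scanned first, and 3363 and 3598 without the 3 whose arrays disagreed. Only the lower number moved with median scaling (3555), and only the higher with both cell types in 1 fit (1331). Leaving out each animal gave 414 to 1889 higher and 1410 to 4320 lower. The share of higher genes among them was 27.1% as reported, 40.4% with processed signals, 38.9% with Cy3 arrays, 15.7% with the strict filter, 40.5% with both cell types in 1 fit, 39.7% with the replicate block and 48.3% without the 3 animals whose arrays disagreed.

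Genes without overlap numbered 57 higher and 418 lower. They moved to 227 higher with processed signals, 18 and 924 with median scaling, 81 lower with Cy3 arrays, 461 and 1390 with Cy5 arrays, 103 higher with no filter and 17 and 198 with the strict filter. With fewer animals overlap is rarer by construction: 289 and 826 without the 2 scanned first, 2178 and 5185 without the 3 that disagreed, and 95 to 576 and 503 to 1639 without each animal. The ratio's 1320 genes at an unadjusted p under 0.05 ranged from 1143 to 1954 without each animal, with 0 past the threshold.

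The replicate block gave 1580 higher (not 800) and 2402 lower genes at an unadjusted p under 0.05 and 0 past the threshold. The days were separate cohorts, so animals were treated as unpaired. Deviations of same-numbered animals correlated at -0.30 to 0.56, with a median of 0.18. Whether animals of the same number shared a batch was not tested. Block fits changed no call.

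Signs of genes outside the 24 leading ones turned in places; the cause was not tested. With processed signals the differences were -0.074 for Arpc2, -0.043 for Psmb5, 0.003 for Bdnf, 0.013 for Gdf10 and -0.13 for Aif1. With median scaling they were -0.11 for S100a10, -0.20 for Arpc2, -0.19 for Atp5mc3, -0.043 for Tpi1, -0.17 for Rpl22, -0.27 for Psmb5, -0.079 for Stmn3, -0.10 for Igf1 and -0.35 for Aif1. With the Cy5 arrays Gap43 was at 0.05, Gad1 at -0.19 and Aif1 at -0.06, and with the strict filter Itga7 at 0.023. With the mean of all probes Srxn1 was at 0.006, Crebbp at 0.049 and Igf1 at -0.13. Array weights gave Gap43 0.047 and Bdnf 0.079. Scan day as a block gave Gap43 0.03, Gdf10 0.14, Gfap 0.23 and Mbp 0.44. Without the 2 scanned first Gap43 was at 0.084, Gdf10 at 0.15, Gfap at 0.25 and Mbp at 0.48. Without the 3 that disagreed Rbfox3 was at 0.16, Gad1 at -0.15 and Aif1 at -0.10. Without each animal in turn the differences ranged from -0.146 to 0.092 for Gap43, -0.229 to 0.026 for Gdf10, -0.192 to 0.030 for Rbfox3, -0.302 to 0.016 for Gfap, -0.305 to 0.25 for Mbp, -0.083 to 0.128 for Aif1, -0.196 to 0.104 for Bdnf and -0.148 to 0.195 for Gad1.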

Other observations

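Over all genes tested, listed and named ones included, the differences were spread unevenly over the range of levels. With the genes ordered by mean level and divided into 4 equal groups, in the dimmest group 54 genes were higher and 106 lower at an unadjusted p under 0.05, and in the next group 287 and 413. In the third group the numbers were 314 and 959 and in the brightest 145 and 679. The median difference of the 4 groups was -0.04, -0.03, -0.10 and -0.06. Across animals, deviations from the gene means correlated at -0.53 to 0.56 within day 7, -0.39 to 0.51 within day 21 and -0.64 to 0.45 between the days.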
